A study of Mus musculus with 6 samples.

Results

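The genes described here make the machinery that copies DNA, supplies its building blocks and packs the new strands into chromatin. Their transcripts were measured on Affymetrix mouse arrays in C2C12 myoblasts held in suspension with or without a knockdown of PRDM2. The members are 31 named genes, found as every probe set whose annotation carried exactly 1 of their symbols. This gave 68 probe sets of the 45101 on the array and covered 30 of the genes, 6 of them by 1 probe set and 1 of them, Dtl, by 6. No probe set carried the symbol Chaf1a, so its transcript was not measured here and the gene enters only the promoter search. A probe set annotated to both Tyms and a pseudogene of it was not used.

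C2C12 is a mouse myoblast line that stops dividing in suspension and can fuse into muscle fibres. The control cells, GFP S48, were a stable pool carrying an shRNA against GFP, and the knockdown cells, PRDM2 KD S48, a stable pool whose shRNA targets PRDM2, a PR/SET domain protein with zinc fingers. Both groups spent 48 hours in methylcellulose with 20% serum to reach G0, and each gave 3 arrays. The labels name biological replicates of a pool, not separate transfections, so the p-values measure the spread between these samples, which may be partly technical. The comparison asks how transcripts differ between the PRDM2 knockdown pool and the control pool after 48 hours in suspension.

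At the start of S phase, the kinase Cdc7 with Dbf4 switches on loaded helicases by bringing in Cdc45 and the GINS complex. Polymerase alpha with primase starts each strand, the clamp Pcna holds the other polymerases on the template, and Fen1 and Lig1 join the lagging-strand pieces. Ribonucleotide reductase makes deoxynucleotides, histone chaperones rebuild chromatin behind the fork, and Uhrf1 and Hells help carry DNA methylation over to the daughter strands. Many of these genes are transcribed with the cell cycle under E2F factors, and their transcripts are low in resting cells.

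The arrays differed in ways the groups do not account for. Control array 3 read 0.0992 for the 5' to 3' signal ratio of Gapdh, against 0.704 to 1.14 elsewhere, and array 3 of each group had a low signal of the Dap labelling spike (38.8 and 39.9, against 126 to 254). Prdm2, the targeted gene, passed at 0 of its 3 probe sets. The brightest differed by -0.51, with a limma adjusted p of 0.441. Another, at 73.0 ± 39.2 and 37.5 ± 14.9, differed by -0.75, and a dim one by 0.10 (limma adjusted p = 0.475 and 0.773). Of 6 myoblast markers 1 fell, 0 rose and 5 did not pass, and their summed intensity was 4795 to 5261 in control and 4089 to 4663 in knockdown cells. The one that fell was Myf5, a myogenic transcription factor, from 178 ± 39.2 to 67.5 ± 17.7 (SD, n = 3 per group; log2 difference -1.29, limma adjusted p = 0.0229). Myod1 was at 165 ± 63.5 and 243 ± 66.5, and Des at 977 ± 125 and 789 ± 147. Markers of differentiating muscle passed the test as higher in the knockdown at 7 of 8 genes. The remaining marker, Ckm, was lower in mean without passing, at 81.1 ± 33.7 and 51.0 ± 15.8 (log2 difference -0.58, limma adjusted p = 0.639). The summed intensity of the 8 markers ran from 228 to 416 in control cells and from 6672 to 8457 in knockdown cells. Summed intensities of the measured adipocyte, endothelial, immune and epithelial markers lay between 8.53 and 84.2 on every array, and 0 of these markers passed. The epithelial sum was 36.5 to 44.6 in control and 68.1 to 84.2 in knockdown cells, mostly Epcam (limma adjusted p = 0.0756). Adipoq was at 0.842 ± 0.179 and 1.51 ± 1.33 and Ptprc, the leukocyte marker CD45, at 1.09 ± 0.554 and 1.82 ± 0.961. The part of the muscle marker differences in the results below was not tested, and fits with array 3 of each group as a block or with arrays left out are given beside the counts. In such bulk RNA, fewer cells of a type and less RNA per cell cannot be told apart.

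Replication genes stood lower in the knockdown, with 5 of them past the test: Cdc45, Pola2, Rrm2, Uhrf1 and Hells. For a gene with several probe sets the brightest on average was taken, and a probe set passed at a limma adjusted p under 0.05 over all 45037 probe sets that are not controls. Of 30 genes 5 fell, 0 rose and 25 did not pass, whereas 1.63% of all 18193 genes fell and 2.23% rose. Of the 68 probe sets 6 fell and 0 rose, beside 1.01% and 1.42% of all probe sets. The sixth was another Rrm2 probe set. With no adjustment, 15 of the 30 genes were lower at p under 0.05, these 5 included, and 0 were higher, beside 7.27% and 8.82% of all genes.

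The size of the shift was modest for most members. On the log2(intensity + 16) scale after quantile normalization, the median difference of the 30 genes was -0.37, from -1.72 for Rrm2 to 0.13 for Tyms, beside a median of -0.004 over all genes. The mean was lower in the knockdown for 28 of 30 genes, and for 51.0% of all genes. In 16 of the 30 all 3 knockdown values lay below all 3 control values, and in 0 above them. Over all genes 9.5% had knockdown values wholly below control. The offset of 16 compresses dim genes, and many member probe sets were dim: 30 of the 68 had a mean under 16 in both groups, and 0 of these passed. The member median was -0.68 with an offset of 1 and -0.17 with an offset of 64.

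**Figure D1:**
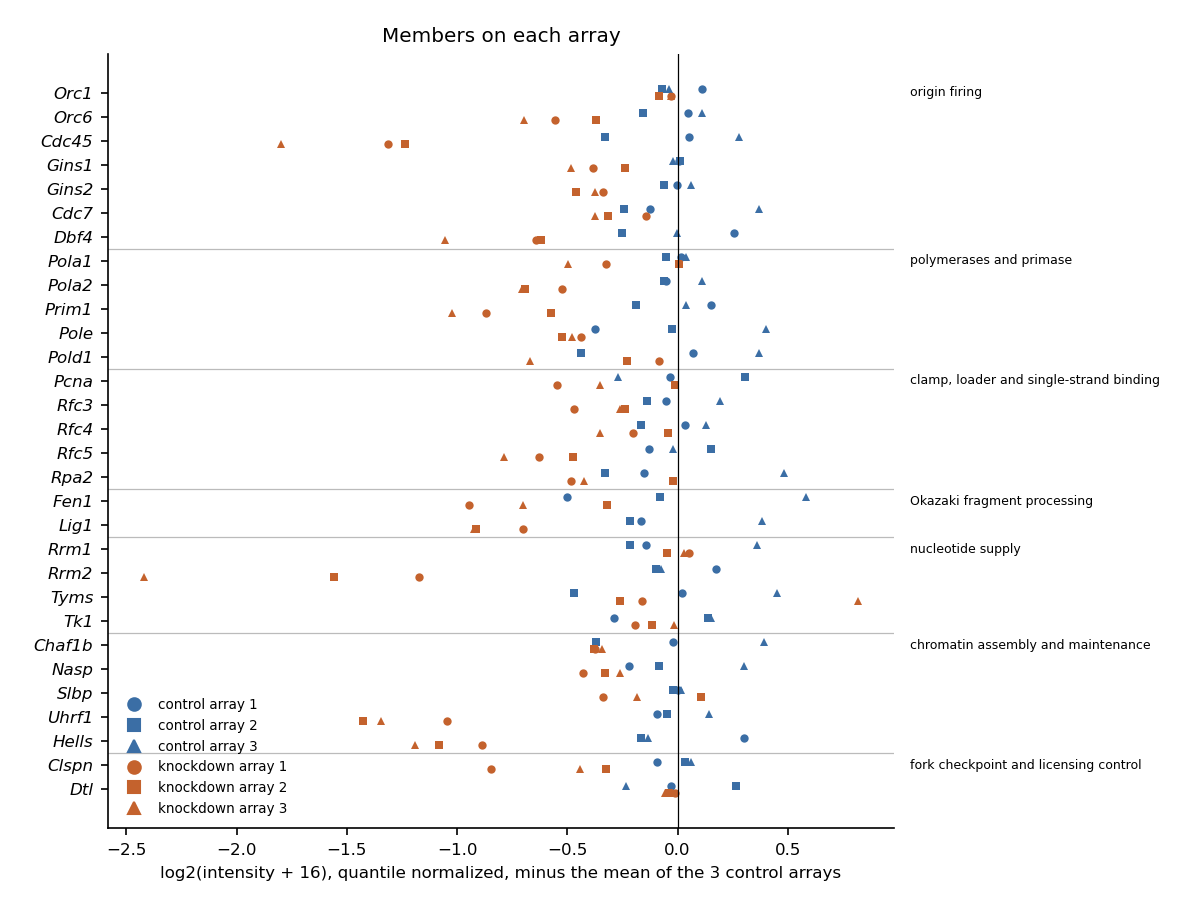
Each row is a member, grouped by role, and each point an array: its log2(intensity + 16) after quantile normalization, minus the mean of the 3 control arrays (blue, control; orange, knockdown; circle, square and triangle, arrays 1 to 3). Knockdown points lie wholly to the left of the control points in 16 of 30 genes, farthest for Rrm2, Cdc45, Uhrf1 and Hells, and the points of Rrm1, Orc1 and Dtl are mixed.

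Across arrays, the median of the members relative to the control mean was -0.03, -0.09 and 0.12 in the 3 control samples and -0.45, -0.32 and -0.46 in the 3 knockdown samples. The 2 groups therefore did not overlap in this median. Control array 3, which had the low 5' to 3' ratio, held the highest of the 6 values for 19 of 30 genes, and knockdown array 3 the lowest for 14. The median difference was -0.30 between arrays 1 and 2 of each group and -0.74 between the arrays 3. With arrays 1 and 2 alone 0 genes passed, and 19 of the member probe sets were lower with p under 0.05 before adjustment, beside 4.16% of all probe sets in that fit. With array 3 of each group as a block, the 5 genes kept their calls, with limma adjusted p from 0.0184 for Uhrf1 to 0.0498 for Pola2.

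The number of genes past the test depended on single arrays. The same held over all probe sets, of which 1094 passed in the main fit and 385 to 906 with 1 array left out. The number of member genes was 1 without control array 1 or 3 or without knockdown array 1 or 2, 2 without knockdown array 3 and 3 without control array 2. Uhrf1 passed in each of these 6 fits. The number of member genes was 8 when 1 probe set per gene was fitted and p-values were adjusted over 18193 genes. There Prim1, Rfc5 and Lig1 passed besides the 5, and 938 of all genes passed, against 702 in the main fit. Without eBayes moderation 0 of 30 passed, with 22 member probe sets lower at an unadjusted p under 0.05, beside 4.61% of all probe sets. In that fit 161 of all probe sets passed.

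Uhrf1, which reads hemimethylated DNA behind the fork and brings the methyltransferase Dnmt1 there, had the lowest adjusted p. Its intensities were 29.4, 35.0 and 33.3 on the control arrays and 7.55, 2.35 and 3.35 on the knockdown arrays. The highest knockdown value was far under the lowest control value. The means were 32.6 ± 2.85 and 4.41 ± 2.76 (SD, n = 3 each), so the knockdown stood at 13.6% of the control. On the scale with the offset this was a log2 difference of -1.27 (SE 0.129, limma adjusted p = 0.00719, range 0.00233 to 0.120 over 18 alternatives). The second Uhrf1 probe set was dim, at 5.07 ± 3.40 and 0.808 ± 0.257, and was lower by 0.30 without passing (limma adjusted p = 0.402).

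Hells, a chromatin remodeller of the SNF2 family needed for normal DNA methylation, read 58.3, 41.9 and 34.4 in the control and 16.1, 13.0 and 10.3 in the knockdown. The groups did not overlap, and the knockdown mean was 29.3% of the control mean. Hells fell by 1.05 on the log2 scale (SE 0.156, limma adjusted p = 0.0256, range 0.00813 to 0.197 over the alternatives). Hells no longer passed in 8 of 19 alternatives. Among these were the fits without control array 1 or 3 or without knockdown array 1, 2 or 3, with adjusted p between 0.0546 and 0.110. Its other 2 probe sets were lower by 0.40 and 0.30 and did not pass.

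The other members that act on chromatin differed less. Chaf1b, a subunit of the assembly factor CAF-1 that puts histones on new DNA, had means of 21.2 ± 7.44 and 12.8 ± 0.475 (log2 difference -0.37, limma adjusted p = 0.574). Nasp, a histone chaperone, read 80.6, 93.9 and 104 against 70.6, 74.7 and 80.1 (log2 difference -0.34, limma adjusted p = 0.466), and its groups were narrowly apart. Slbp, which binds the stem-loop of histone mRNAs, read 197, 195 and 164 in the control and 158, 210 and 171 in the knockdown. These values were interleaved, and the log2 difference was -0.14 (95% interval -0.44 to 0.17). Of the 5 measured genes of this role 2 fell, with a median of -0.37. Over all genes 1.63% fell, and the median was -0.004.

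Among the genes that start replication at origins, Cdc45 changed most. This partner of the replicative helicase read 78.3, 60.2 and 80.7 on the control arrays and 19.9, 23.4 and 9.82 on the knockdown arrays. All knockdown values were under the lowest control value, and the mean fell to 24.2% of the control. In log2 units it fell by 1.45 (SE 0.211, limma adjusted p = 0.0242, range 0.00344 to 0.177 over 19 alternatives). Cdc45 did not pass in 9 of these alternatives. It passed without control array 2 and did not without any other single array, with adjusted p of 0.0694 to 0.104. The second Cdc45 probe set, at 16.1 ± 2.19 and 14.4 ± 4.27, differed by -0.07 and did not pass.

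The other 6 origin genes were lower in mean without passing. Dbf4, the activating subunit of the Cdc7 kinase, read 114, 78.0 and 78.4 in the control and 55.1, 55.1 and 36.0 in the knockdown, with the groups apart (log2 difference -0.77, limma adjusted p = 0.110). Orc6, a subunit of the origin recognition complex, read 59.3, 54.2 and 54.2 against 34.0, 42.4 and 29.4, also apart (log2 difference -0.54, limma adjusted p = 0.102). Gins1 and Gins2, which encode subunits of the GINS complex, were both dim and both lower, with knockdown means of 56.1% and 48.8% of the control. They differed by -0.37 and -0.39 (limma adjusted p = 0.136 and 0.0798). Cdc7 itself differed by -0.28 at its representing probe set (limma adjusted p = 0.683), its groups overlapping. At its other probe set the groups were apart, at 17.7 ± 4.21 and 8.48 ± 2.02 (log2 difference -0.46, limma adjusted p = 0.264). Orc1, the largest subunit of the recognition complex, was dim, at 8.06, 5.17 and 5.55 against 5.54, 4.92 and 5.64, and differed by -0.05.

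Of the polymerase genes Pola2 passed. It encodes the B subunit of polymerase alpha and read 46.9, 51.6 and 47.4 in the control and 29.6, 25.9 and 24.3 in the knockdown. The 2 groups were far apart relative to their spread, with the knockdown at 54.8% of the control. Pola2 fell by 0.64 on the log2 scale (SE 0.0961, limma adjusted p = 0.0265, range 0.0149 to 0.208 over the alternatives). The call was lost in 12 of 19 alternatives. Among these was every fit with 1 of the 6 arrays left out, with adjusted p of 0.0563 to 0.108. Its other 2 probe sets were dim and differed by 0.05 and -0.34.

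Prim1, the catalytic primase subunit that lays down RNA primers, was lower at both probe sets by about as much and just missed the threshold. Its representing probe set read 65.9, 53.3 and 51.4 against 24.0, 35.2 and 20.2, with no overlap (log2 difference -0.82, SE 0.149, limma adjusted p = 0.0512). The other differed by -0.94 (limma adjusted p = 0.161). Pole, the catalytic subunit of the leading-strand polymerase epsilon, was dim, at 9.88 ± 6.205 and 2.26 ± 0.529 (log2 difference -0.48, limma adjusted p = 0.405). Pold1, the catalytic subunit of polymerase delta, differed by -0.33, but by 0.03 between arrays 1 and 2 and -1.04 between the arrays 3. Pola1, the catalytic subunit of polymerase alpha, had the smallest difference of this role. It read 21.0, 21.9 and 19.7 in the control and 12.9, 21.8 and 9.83 in the knockdown, overlapping on knockdown array 2 (log2 difference -0.27, limma adjusted p = 0.568).

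None of the 5 genes for the clamp, its loader and single-strand binding passed the limma test. Lower at an unadjusted p under 0.05 were 2 of them, beside 7.27% of all genes. Pcna, the sliding clamp, read 591, 771 and 409 in the control and 414, 597 and 458 in the knockdown. The groups overlapped, and the difference was -0.30 (95% interval -0.77 to 0.17, limma adjusted p = 0.692). Of the clamp loader subunits, Rfc5 read 57.4, 77.8 and 54.6 against 36.5, 43.8 and 31.03, with the groups apart (log2 difference -0.63, limma adjusted p = 0.0600). Rfc3 differed by -0.32 (limma adjusted p = 0.363). Rfc4 read 43.9, 40.9 and 42.3 against 35.9, 43.3 and 30.8, where knockdown array 2 lay within the control range, and differed by -0.20. Rpa2, a subunit of the protein that coats single-stranded DNA, differed by -0.31, made up of -0.01 between arrays 1 and 2 and -0.91 between the arrays 3. Its other probe set was dim, at 10.3 ± 9.26 and 12.4 ± 2.41, and differed by 0.20 (limma adjusted p = 0.839).

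The 2 genes for lagging-strand processing were lower without passing. Lig1, the ligase that seals Okazaki fragments, read 57.6, 59.7 and 79.5 against 35.4, 29.6 and 27.97, and no knockdown value reached the control range (log2 difference -0.85, SE 0.178, limma adjusted p = 0.0820). Fen1, the nuclease that trims their ends, read 120, 170 and 228 against 87.0, 138 and 105, with overlap (log2 difference -0.65, limma adjusted p = 0.497).

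Nucleotide supply held both the largest fall and the smallest difference among the members. Rrm2, the small subunit of ribonucleotide reductase that is made in S phase, read 1130, 937 and 753 on the control arrays and 424, 312 and 166 on the knockdown arrays at its brightest probe set. The groups were clearly apart, and the mean fell to 32.02% of the control. In log2 units it fell by 1.72 (SE 0.310, limma adjusted p = 0.0499, range 0.00777 to 0.262 over 19 alternatives). The call stood at the threshold. It was lost in 12 of the 19 alternatives. Among these were the fits without any 1 array except knockdown array 3, with limma adjusted p of 0.0625 to 0.178. Offsets of 1 and 64 and the deposited values without further normalization also lost it.

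The other Rrm2 probe sets pointed the same way. One read 525, 441 and 300 against 186, 127 and 93.0, which is 32.1% of the control, and passed (log2 difference -1.63, SE 0.238, limma adjusted p = 0.0242). The third differed by -1.20 without passing (limma adjusted p = 0.161). Rrm1, the large subunit, read 111, 107 and 137 in the control and 135, 119 and 130 in the knockdown. These values were interleaved, with a difference of 0.01 (95% interval -0.38 to 0.40). Tk1, the thymidine kinase of the salvage pathway, was at 15.9 ± 5.54 and 13.0 ± 1.89 (log2 difference -0.11). Tyms, thymidylate synthase, was represented by a probe set at 24.9 ± 9.96 and 32.2 ± 22.2 (log2 difference 0.13). Its other 3 probe sets had means of at most 5.08.

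**Figure D2:**
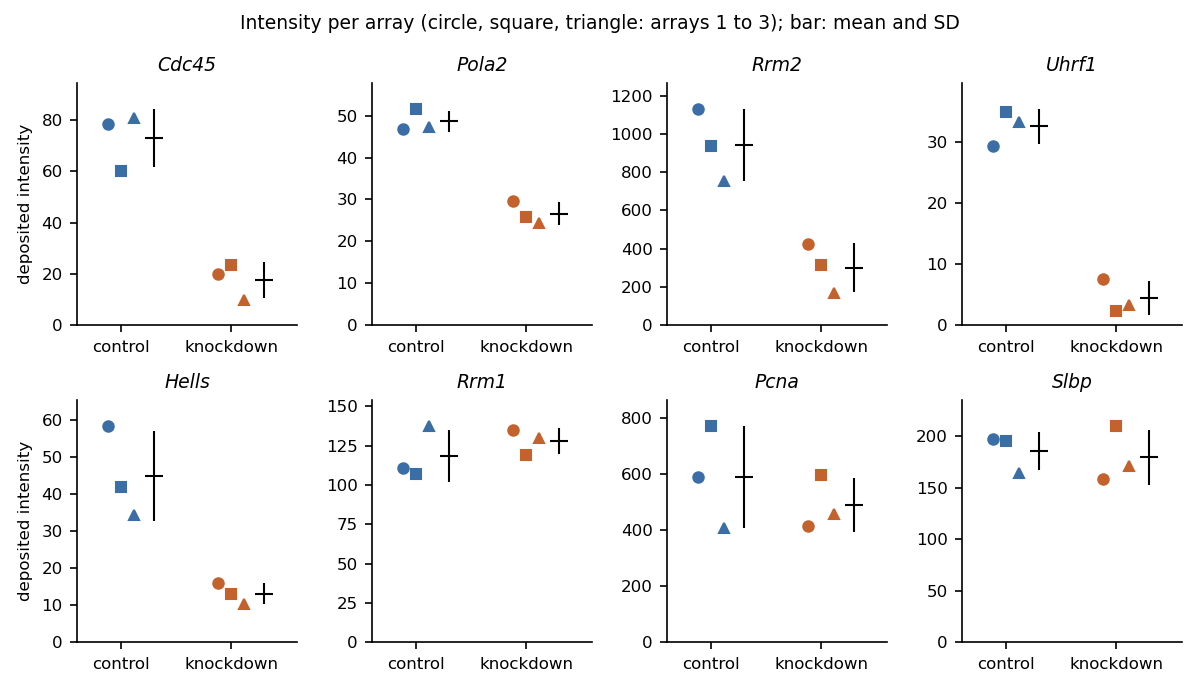
Deposited intensity (linear axis from 0) on each array for the 5 genes that passed, and for Rrm1, Pcna and Slbp, with group mean and SD beside the points (n = 3). The groups are apart in the first 5 panels, for example 24.3 to 29.6 against 46.9 to 51.6 for Pola2, and overlap in the last 3.

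Of the genes that guard the fork and limit licensing, Clspn, the adaptor that relays the replication checkpoint signal, read 16.5, 21.8 and 18.3 against 3.28, 11.99 and 9.27, without overlap (log2 difference -0.54, limma adjusted p = 0.184). Dtl, which marks the licensing factor Cdt1 for destruction at Pcna, differed by -0.03 at its representing probe set, which read 16.6, 26.6 and 11.7 against 16.3, 16.9 and 15.6. The other 5 Dtl probe sets differed by -0.41, -0.45, -0.23, 0.05 and -0.16. At 3 of them, all dim with means under 16 in both groups, the groups were apart and lower in the knockdown. These probe sets measure 1 gene, and over all genes 9.5% had knockdown values wholly below control. The lowest limma adjusted p of the 5 was 0.112.

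**Figure D3:**
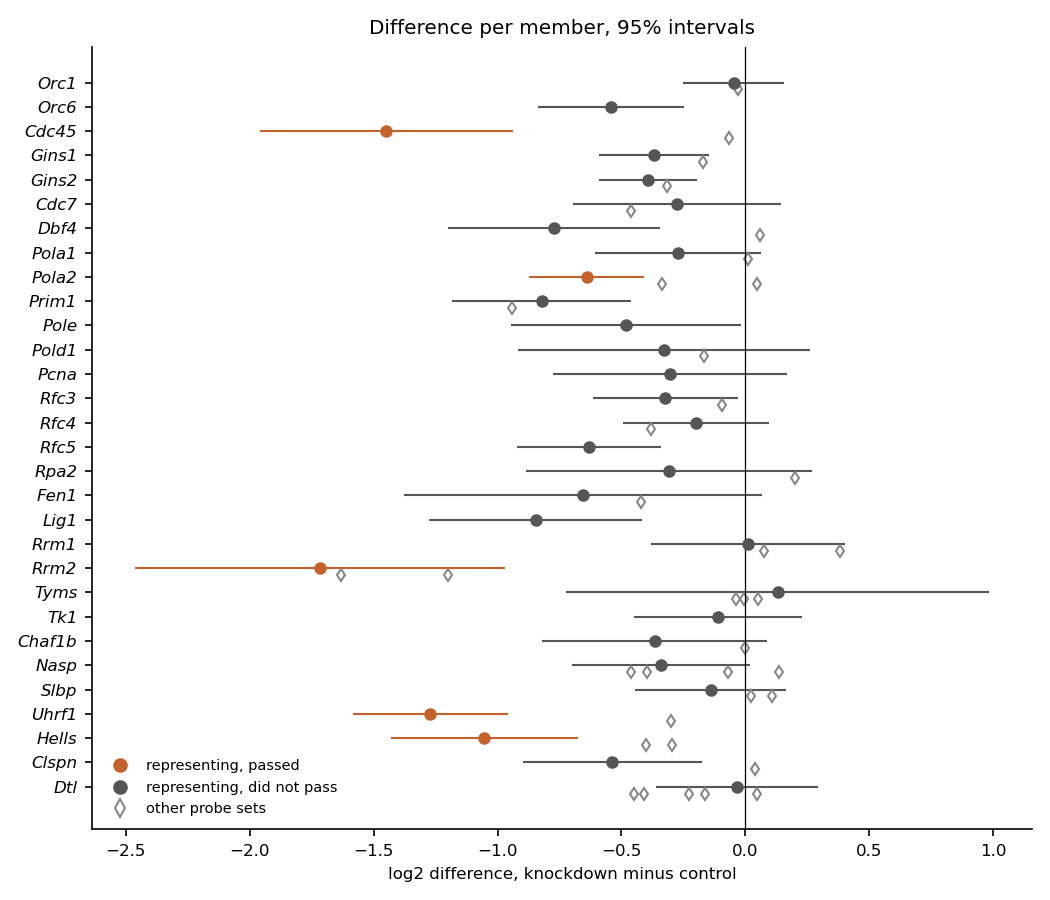
Log2 difference, knockdown minus control, of each member's representing probe set with its 95% interval (orange, passed at a limma adjusted p under 0.05; grey, did not), and of its other probe sets (open diamonds). All representing probe sets but those of Rrm1 and Tyms lie left of 0, and those of Rrm2, Cdc45, Uhrf1 and Hells lie farthest, from -1.72 to -1.05.

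Subunits of a shared complex were compared by the within-array log2 difference of their values, for 10 pairs chosen after the values were seen. Rrm2 fell further than Rrm1 in each knockdown array relative to the controls, with SDs of 0.390 among control and 0.641 among knockdown arrays (difference of changes -1.73, exact two-sided permutation p = 0.1, 0.2 adjusted over the 10 pairs). With 3 arrays against 3 an exact p of 0.1 is the smallest possible, so 0 pairs could pass. The difference of changes was -0.55 for Prim1 against Pola1 and -0.37 for Pola2 against Pola1 (exact permutation p = 0.1 and adjusted p = 0.2 each). For Gins1 against Gins2 it was 0.02 (exact permutation p = 0.9), with SDs of 0.0774 and 0.176.

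The promoters of members were searched because many genes of this set are known E2F targets. RefSeq windows of the GRCm38.p6 assembly, 250 bases before to 50 after a start site, were available for 28 of the 31 symbols. Searched on both strands were the E2F-type 8-mers TTTCCCGC, TTTGGCGC, TTTCGCGC and TTTGCCGC, and CCAAT. A match of TTTGGCGC or TTTCGCGC can overlap one on the opposite strand. At least 1 E2F-type 8-mer was found for 9 of 28 members (32.1%), beside 3.81% of the 14452 genes on the array that had a window and 2.6% of all 27025 genes with one. Among the other genes of DNA replication listed below, 14 of the 39 with a window (35.9%) had a match, so the share was not particular to the members. TTTCGCGC was found for 5 members and 0.574% of the array genes, and TTTGCCGC for 0 members. CCAAT was found for 57.1% of members, 59% of those other replication genes and 42% of the array genes with a window. Among the members that fell 2 of 5 had an E2F-type match, and among measured members that did not pass 7 of 22. A match is a run of letters and not a proven site. No match says nothing of the factor.

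The stretches upstream of the start site are printed for the members that fell and held a match there. They are also printed for Orc1 and Dtl, which held an E2F-type match there and did not pass. Rfc3 and Pola1 likewise held such a match upstream and did not pass, and their stretches are not printed. E2F-type matches are in capitals for Uhrf1 (chr17:56304108-56304167, plus strand, second window of the gene), Hells (chr19:38930890-38930955, plus), Orc1 (chr4:108579354-108579453, plus) and Dtl (chr1:191575545-191575644, minus). For Rrm2 (chr12:24708184-24708228, plus) and Cdc45 (chr16:18811973-18812005, minus) the capitals mark CCAAT or its reverse complement.
Uhrf1: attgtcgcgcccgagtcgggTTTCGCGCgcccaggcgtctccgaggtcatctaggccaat
Hells: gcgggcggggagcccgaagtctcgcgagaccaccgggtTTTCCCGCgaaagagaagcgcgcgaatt
Orc1: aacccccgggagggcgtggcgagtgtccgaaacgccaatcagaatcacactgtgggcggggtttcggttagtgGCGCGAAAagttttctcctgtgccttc
Dtl: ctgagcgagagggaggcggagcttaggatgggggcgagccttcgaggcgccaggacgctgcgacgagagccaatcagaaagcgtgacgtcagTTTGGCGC
Rrm2: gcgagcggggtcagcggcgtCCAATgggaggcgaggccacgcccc
Cdc45: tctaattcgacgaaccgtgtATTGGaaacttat

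Other genes of DNA replication, a list of 50 with 49 measured and no member among them, gave 4 lower, 0 higher and 45 not passing in the same limma fit, with a median of -0.27. Over all genes 1.63% fell and 2.23% rose, and the median was -0.004. With no adjustment 18 of the 49 were lower at p under 0.05 and 1, Asf1a, was higher, beside 7.27% and 8.82% of all genes. Pclaf, a Pcna-binding protein, fell by 1.91 (limma adjusted p = 0.0378), from 83.7 ± 50.4 to 9.58 ± 4.65. The helicase subunits Mcm5, Mcm3 and Mcm2 fell by 1.73, 1.20 and 0.75 (limma adjusted p = 0.0242, 0.0242 and 0.0303). Of the bright genes that did not pass, Rpa1, the large single-strand binding subunit, was at 350 ± 7.37 and 328 ± 54.6, and Cdt1 at 296 ± 64.2 and 314 ± 94.97, with differences of -0.18 and -0.02. The count of 4 was 7 with the mean of each gene's probe sets, 1 without control array 1 or knockdown array 1, 2 without control array 3, and 0 without knockdown array 2 or 3.

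**Figure D4:**
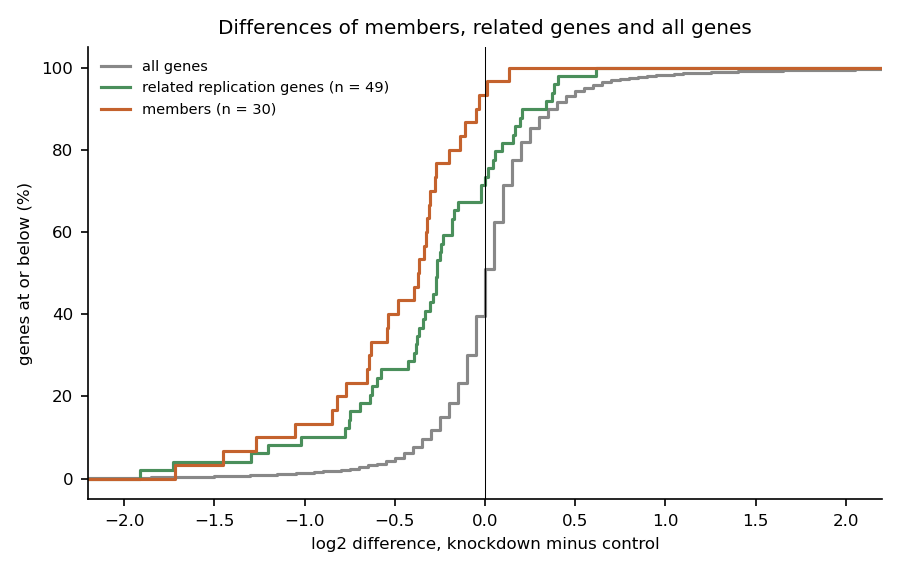
Share of genes (vertical axis, percent) with a log2 difference, knockdown minus control, at or below the value on the horizontal axis, for the 30 members, 49 related replication genes and all 18193 genes, the last in steps of 0.05. At 0 the member curve has passed 28 of 30 genes and the related curve 36 of 49, while all genes are at 51.0%.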

How the data were processed

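The authors deposited linear intensity values, 1 for each array and probe set, made with GCOS and PLIER per the submitters' processing notes; versions, background correction and scaling between arrays are not given in the sources used here, nor are detection calls. RNA from Trizol extraction (8 µg) was labelled with biotin, per the labels' protocols. Of 45101 probe sets 64 controls were left out of the tests. Symbols came from the platform annotation (34945 probe sets with 1 symbol, 932 with several, 9160 with none). In R 4.3.3 with limma 3.58.1, log2(intensity + 16) was quantile normalized, fitted by lmFit and eBayes over all 45037 probe sets and adjusted by Benjamini-Hochberg, with a threshold of 0.05; 95% intervals come from the same fit. Intensities are deposited values, and log2 differences are normalized ones. The number of arrays limits precision. Members, lists and roles were chosen with earlier results of these data known. All members are named; values per array are given for those that passed, the smallest difference of each role and further members. Related genes are named by the 3 largest passing changes each way and the 2 brightest that did not pass. Mcm2, Asf1a and Asf1b were added after their values were seen, and Dck and Dut are also named outside this rule.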

Additional observations from a re-analysis of the deposited data

How the results depend on the processing

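Over 19 alternatives 0 member genes rose and the member median kept its sign; 0 member probe sets rose in the 17 that fitted all or filtered probe sets. The main values were 1094 probe sets called, 6 member probe sets and 5 member genes lower, a member median of -0.37 and 4 related genes lower. With an offset of 1, 3 member genes were lower and the median was -0.68. With an offset of 64 these were 2 and -0.17, with 3 member probe sets and 1 related gene lower. With a filter of at least 32 on 3 arrays the median was -0.65 over the 17 genes left. Control arrays alone can meet this filter, as for 3 of these genes (Cdc45, Hells and Pola2), so it favours genes lower in the knockdown. Ordinary statistics called 161 probe sets, and 0 member probe sets, member genes and related genes. Array weights called 1981, 15, 11 and 7, and arrays 1 and 2 alone 184, 0, 0 and 0. Fitting 1 probe set per gene gave 8 member genes lower. In that fit 938 of all 18193 genes passed in either direction, against 702 in the main fit. The mean of a gene's probe sets gave 8 member and 7 related genes lower, without a count over all genes to set beside them. Where fewer arrays or rows enter a fit its construction differs; the causes of the other changes were not tested.

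With the replicate number as a block, 592 probe sets, 3 member probe sets, 2 member genes and 1 related gene were called. Same-numbered arrays 1, 2 and 3 correlated by 0.364, 0.0961 and 0.00552 in their deviations from the group means. The highest correlation of the same control array with a knockdown array of another number was 0.0726, 0.231 and 0.161. Only number 1 correlated best with its own number, and the main fit did not take the numbers to pair the arrays.

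Leaving out 1 array in turn gave 385 to 906 probe sets called, 1 to 3 member probe sets lower, 1 to 3 member genes lower, a median of -0.48 to -0.32, and 0 to 3 related genes lower. Direction turned for members that did not pass: Tk1 was 0.042 with array weights and Pold1 0.029 in arrays 1 and 2. Without single arrays Rrm1 ranged from -0.0945 to 0.192, Tyms from -0.210 to 0.364, Orc1 from -0.0804 to 0.0082 and Dtl from -0.156 to 0.0949. The deposited values carry no detection calls, so signal over background could not be judged for dim members.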

Other observations

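The 2 genes of the histone chaperone Asf1 had differences of opposite sign, noticed after the values were seen; the difference between them was not tested. Asf1b, the form linked to proliferation, was at 23.9 ± 3.94 in the control and 7.75 ± 2.05 in the knockdown (log2 difference -0.75, SE 0.144, limma adjusted p = 0.0608). Asf1a was at 112 ± 34.1 and 188 ± 13.4 (log2 difference 0.61, SE 0.160, limma adjusted p = 0.156). In both genes the groups did not overlap, and neither passed the test. Dck, the deoxycytidine kinase of nucleotide salvage, was lower by 1.30 without passing (limma adjusted p = 0.0653), whereas Dut, which keeps uracil out of DNA, was at 212 ± 23.4 and 314 ± 93.1 with overlapping values (log2 difference 0.40, limma adjusted p = 0.575).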
